A study of Mus musculus with 18 samples.

Results

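Treated B16F10 melanomas were compared gene by gene with treated Lewis lung carcinomas (LLC). Both are mouse tumors that were grown under the skin of the flank in male C57BL/6 (B6) mice, 12 weeks old by the labels, and dosed on the same cyclophosphamide (CPA) schedule. The rule took the mean of LLC tumors given CPA every 6 days (CPA/6d) from the table that pairs it with CPA/6d GL261 gliomas of B6 mice, and the mean of CPA/6d B16F10 tumors from the matching table. It put both on a common scale through the GL261 column that the tables share, and set B16F10 against LLC for all 23284 gene symbols. The comparison holds 4 of the 18 libraries of the series, which are 2 of its 9 groups. Both groups received 3 injections of CPA at 140 mg/kg, 6 days apart, and the tumors were taken 6 days after the last injection. Column titles of the deposited tables give 150 in place of 140 for both tumors. Each treated LLC pool held RNA of 5 tumors, and the treated B16F10 pools held 4 and 3. The 4 pools of untreated LLC and untreated B16F10 tumors, each of 5 tumors, served as the reference before treatment. Each tumor is grown from a single cell line, obtained from ATCC, so the line, its genome and its growth in the host cannot be told apart in any difference below.

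B16F10 is a derivative of a melanoma that arose in a B6 mouse. Melanoma cells descend from pigment cells, which make melanin inside melanosomes under the control of the transcription factor MITF. LLC arose in the lung of a B6 mouse and is grown as a transplantable carcinoma of poor differentiation. CPA is activated in the liver to an alkylating agent that crosslinks DNA, and cells with such damage can stop dividing and switch on targets of the p53 protein. Tumor tissue also holds host cells, among them macrophages, vessel cells and fibroblasts.

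The deposited values are group means, and each was split into the whole reads of its 2 pools. Pools had 13286014 and 7751408 reads over genes in treated LLC, 10194952 and 8307937 in treated B16F10, 15148583 and 6989888 in untreated LLC and 10963900 and 8350176 in untreated B16F10. Depth is all that distinguishes the pools of a group after this step, and below the value of the more deeply sequenced pool always comes first. Levels are reads scaled by trimmed means (TMM), called normalized reads, and are compared between groups for a gene and never between genes. The median gene with at least 100 normalized reads differed between the 2 pools of a group by 0.0803 to 0.1471 on the log2 scale. Muscle transcripts were high in both untreated B16F10 pools and in 1 treated B16F10 pool. The treated LLC pool of fewer reads also held more of them than its partner. All 15 skeletal muscle genes were called higher in untreated B16F10 than in untreated LLC. Their sums were 7585.6 and 5596.3 normalized reads in untreated B16F10 and 249.07 and 691.69 in untreated LLC. The 15 skeletal muscle genes summed to 332.81 and 18613 normalized reads in treated B16F10 and to 879.79 and 4017.5 in treated LLC, and 13 of them were tested and none was called different. Without the B16F10 pool of more reads 7 were called higher in B16F10, and without the B16F10 pool of fewer reads 4 of 11 were called higher in LLC. The pigment genes matched the B16F10 label. LLC carried keratins, while the lung surfactant genes Sftpc and Sftpb, the airway secretoglobin Scgb1a1 and the epithelial adhesion gene Epcam had from 0 to 1.41 normalized reads in the treated LLC pools, and Nkx2-1, a regulator of lung fate, had 11.3 and 9.37.

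Treated B16F10 and treated LLC differed across the whole transcriptome. A gene was called different at a fold over 2 and an unadjusted p under 0.001 by limma, where the largest Benjamini-Hochberg adjusted p of a called gene was 0.00185. Of 13181 genes tested, 2715 were called higher in B16F10 and 2716 higher in LLC, which is 20.6% in each direction. Each count of a list below, in the fit of all treated pools, is to be read beside that share. Without treatment 18.5% of 12930 genes were called higher in B16F10 and 18.2% higher in LLC. The median over all genes tested was -0.06 in log2, B16F10 minus LLC, after treatment and 0.01 before. The rule's own scaling lies 0.156 higher at the median gene, so that its log2 ratios favor B16F10 by that much, and with it 57.7% of the calls were higher in B16F10. Every called gene had the same direction by the rule's ratio. The treated and untreated comparisons share no library. Of genes tested in both, 1878 were called higher in B16F10 before and after treatment, 72.5% of those called after treatment and 80.3% of those called before. In the LLC direction 1721 were shared, 64.9% and 74% of the respective lists, and 7 genes in all were called in opposite directions (6 and 1). The extremes lay mostly on the B16F10 side, with 65 called genes beyond 8 log2 units against 11 in LLC.

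**Figure D1:**
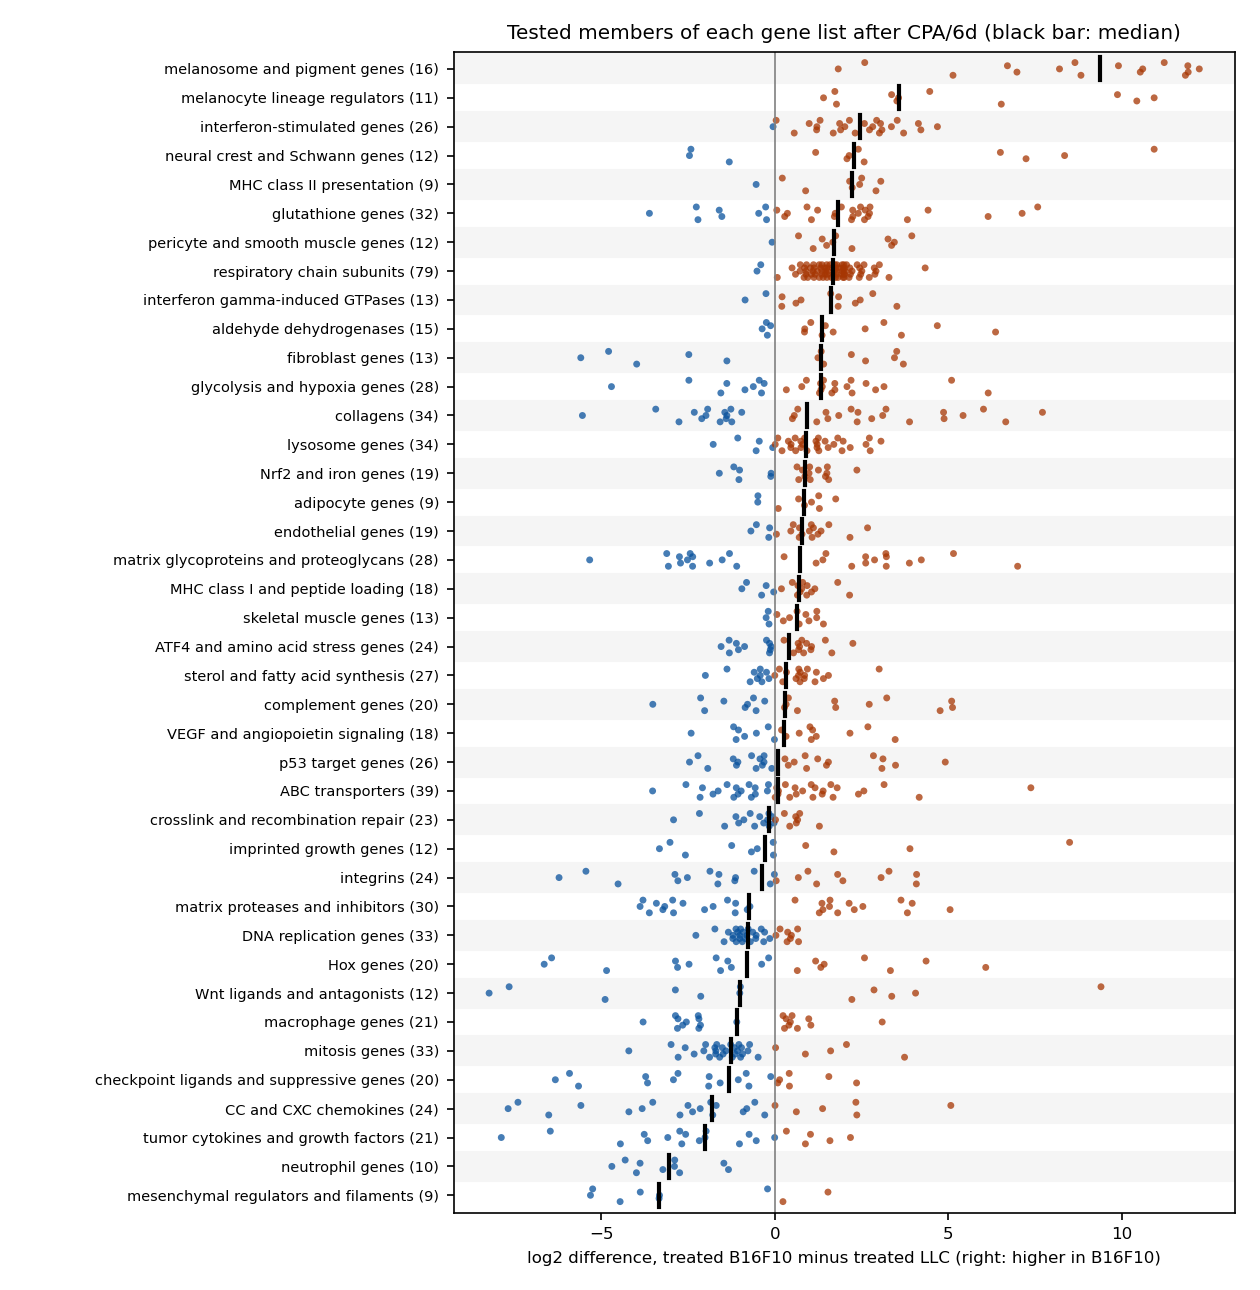
Log2 difference between treated B16F10 and treated LLC (x axis, right is higher in B16F10) for each tested member (point) of gene lists with at least 9 tested members (rows, number tested in parentheses), with the median of the list as a black bar. Pigment genes lie farthest to the right with a median of 9.36, all 79 respiratory chain genes but 2 lie above 0, and mesenchymal regulators and neutrophil genes lie farthest to the left with medians of -3.33 and -3.06.

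The responses to CPA were compared as well, as the difference between the change of B16F10 and the change of LLC in a fit of all 8 pools. Here 4.60% of 13467 genes had a higher response in B16F10 and 3.94% a lower one. B16F10 itself rose in 5.92% and fell in 3.43% of these genes, and LLC rose in 1.50% and fell in 0.809%. The response difference uses the treated pools too, so it and the treated difference are set side by side below and are not independent of each other.

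Pigment genes separated the tumors most. All 16 genes of the melanosome list were tested and all 16 were called higher in treated B16F10, against 20.6% of all genes, and all 16 were called before treatment too. Without one or the other treated B16F10 pool 11 or 10 of them still passed the filter on low reads, and each of these was called. Their median log2 difference was 9.36, with 8.69 in untreated tumors. Promoters of the 3 enzymes of melanin synthesis are printed because these genes mark the B16F10 tumors, as the 250 bases before the RefSeq start in build GRCm38.p6, read in the direction of the gene, with each match to CATGTG, a core of the motif that MITF binds, in capitals on either strand. They lie at chr7:87493513-87493762 on the minus strand (Tyr), chr4:80833963-80834212 on the plus strand (Tyrp1) and chr14:118052247-118052496 on the minus strand (Dct).
Tyr: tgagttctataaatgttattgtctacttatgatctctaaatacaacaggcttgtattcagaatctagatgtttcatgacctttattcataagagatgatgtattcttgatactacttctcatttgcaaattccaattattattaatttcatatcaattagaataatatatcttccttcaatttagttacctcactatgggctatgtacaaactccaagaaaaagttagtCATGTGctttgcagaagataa
Tyrp1: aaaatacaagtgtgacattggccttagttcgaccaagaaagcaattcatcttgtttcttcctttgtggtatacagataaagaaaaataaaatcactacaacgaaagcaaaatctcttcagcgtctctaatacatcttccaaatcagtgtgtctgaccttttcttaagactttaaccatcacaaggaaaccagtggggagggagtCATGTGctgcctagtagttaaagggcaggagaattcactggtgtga
Dct: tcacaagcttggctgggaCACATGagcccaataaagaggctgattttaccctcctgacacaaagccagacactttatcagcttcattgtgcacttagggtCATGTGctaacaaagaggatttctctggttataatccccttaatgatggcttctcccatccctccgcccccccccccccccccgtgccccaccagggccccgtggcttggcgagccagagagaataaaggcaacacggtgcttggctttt
The match begins 21 bases before the start in Tyr and 46 before it in Tyrp1, and Dct has matches at 232 and 150 bases before it. Of the 16 pigment genes 11 had a promoter entry, and 6 of these, or 54.5%, held the motif on either strand, as did 13.8% of all 27025 genes with an entry and 12.3% of all 32851 promoters in the table. No other motif searched overlaps this one.

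Tyrp1, which stabilizes tyrosinase and acts late in melanin synthesis, had 91022 and 91787 normalized reads in treated B16F10 and 18.4 and 17.6 in treated LLC. Its log2 difference was 12.23 ± 0.07 (SE, 2 pools a group), with an adjusted p of 1.24e-08 by limma. Dct, dopachrome tautomerase, had 63817 and 70410 against 21.2 and 12.9, and Pmel, which builds the fibrils that melanin is laid on, had 54303 and 71744 against 21.9 and 10.5. The groups did not overlap at any of these genes. How often this held over all genes was not counted, so the lack of overlap adds nothing to limma's test. Tyr, tyrosinase itself, had 9907 and 9492 in treated B16F10 against 25.4 and 16.4, and its log2 difference of 8.82 ± 0.19 stood beside 7.89 before treatment. Mlana, a melanosome protein recognized by T cells, had 7946 and 8739 against 1.41 and 1.17. With 3 reads in all in treated LLC, its ratio was 6279 with an exact 95% counting interval of 2148 to 30453. The lowest of the 16 was Myo5a, the motor that carries melanosomes and is used by other cells too, at a log2 difference of 1.83. Gpnmb, which was also read in LLC, had 3242 and 2880 normalized reads there against 99491 and 115960, and it is also a gene of macrophages. It rose with CPA in both tumors, by 1.37 in B16F10 and 1.07 in LLC on the log2 scale, and none of the 16 pigment genes had a called difference of response.

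**Figure D2:**
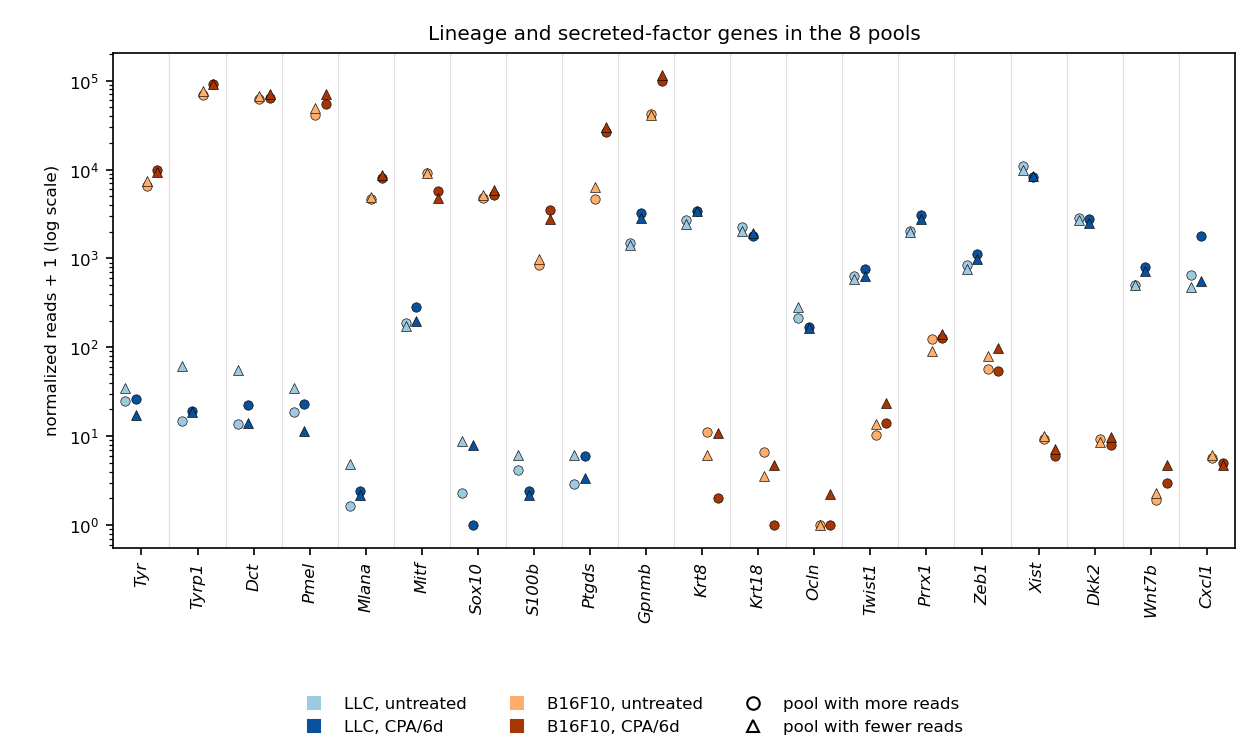
Normalized reads plus 1 (y axis, log scale) of 20 genes of pigment cells, epithelium, mesenchyme, X inactivation and secreted factors (x axis) in each of the 8 pools, colored by group, with circles for the pool with more reads and triangles for the pool with fewer. Tyrp1 sits at 91022 and 91787 in treated B16F10 and at 18.4 and 17.6 in treated LLC, Gpnmb sits at 3242 and 2880 in treated LLC, and Krt8, Krt18 and Xist show the reverse order.

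Regulators of the pigment lineage were also on the B16F10 side. Of 11 tested, 11 were called higher after treatment (median 3.57) and 9 before. Mitf, the master regulator, had 5741 and 4774 normalized reads in treated B16F10 against 282 and 198 in treated LLC, a log2 difference of 4.46 ± 0.18. Untreated B16F10 had a mean of 9133 against 179 in LLC, a difference of 5.67, and the response differed between the tumors by -1.20 ± 0.21 (adjusted p = 0.0019 by limma). That call was lost in 5 of 8 fits that left out 1 pool, those without either untreated LLC pool, either untreated B16F10 pool or the treated LLC pool of more reads, with values from -1.46 to -0.95 over the 8. Neither response alone was called for Mitf. Sox10, which switches on Mitf in the neural crest, had 5114 and 5943 against 0 and 7.03. Mc1r, the melanocortin receptor that raises pigment output, had 4299 and 4516 against 9.18 and 1.17. S100b, a calcium-binding protein used as a melanoma marker, moved further apart with treatment, from a mean of 914 to 3526 and 2806 in B16F10 while LLC went from 4.16 to 1.41 and 1.17. Its response difference was 2.93 ± 0.33 (adjusted p = 2.0e-04). Pax3, Erbb3 and Kit, which act in migrating pigment cell precursors, had log2 differences of 3.52, 3.57 and 1.73.

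Genes of the neural crest and of Schwann cells, relatives of pigment cells, were mostly higher in treated B16F10, 9 of 12 tested, with 2 higher in LLC. Without either treated B16F10 pool 8 were tested, with 5 higher in B16F10 and 2 in LLC. Cdh19, a cadherin of Schwann cell precursors, had 563 and 409 against 0 and 1.17, and Gfap, an intermediate filament of glia, had 514 and 429 against 0.706 and 4.68. L1cam, an adhesion molecule of growing axons, turned its order. It had means of 43.7 in untreated B16F10 and 453 in untreated LLC, and after CPA 317 and 383 in B16F10 against 148 and 159 in LLC. Both treated B16F10 pools were thus above both treated LLC pools, while untreated LLC pools were above untreated B16F10 pools, and its response difference of 4.54 ± 0.24 (adjusted p = 1.4e-05) was called. The genes called higher in LLC were Gap43, a growth cone protein, and Nes, a filament of progenitor cells, at -2.46 and -2.42.

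LLC expressed keratins of simple epithelium together with regulators of mesenchyme. Krt8 had 3448 and 3417 normalized reads in treated LLC against 0.999 and 9.97 in treated B16F10, and its partner Krt18 had 1775 and 1923 against 0 and 3.74. For Krt18, with 3 reads in B16F10, the ratio was 1100 with an exact 95% interval of 376 to 5337. Ocln, a tight junction protein, had 168 and 163 against 0 and 1.25. The fourth epithelial gene tested, Cdh1 or E-cadherin, had 16.9 and 19.9 in LLC and 35 and 31.2 in B16F10 and was not called (adjusted p = 0.027). Without either treated LLC pool it was the member left to test, as the filter needs reads in 2 libraries. Of 9 mesenchymal genes 6 were higher in LLC and 1 in B16F10. Twist1, a driver of mesenchymal state, had 751 and 627 in LLC against 13 and 22.4, Prrx1, a factor of limb and wall mesenchyme, 3115 and 2752 against 126 and 140, and Zeb1, a repressor of epithelial genes, 1134 and 991 against 53 and 96. Snai1 and Snai2, which repress E-cadherin, were both higher in LLC, at log2 differences of -3.33 and -3.32. The member higher in B16F10 was Cdh2, N-cadherin, at 1.53, and vimentin (Vim), at 45118 and 45871 against 38820 and 39994, was not called.

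Xist, the RNA that coats the inactive X chromosome, had 8295 and 8439 normalized reads in treated LLC against 5 and 6.23 in treated B16F10, a log2 difference of -10.31 ± 0.13. The hosts were male and the study describes LLC cells as female and B16F10 cells as male. Tsix, transcribed from the opposite strand of the Xist locus, had 14.8 and 17.6 against 0 and 0, at least 9.53-fold higher in LLC when the 0 is taken as 3 reads over the group. The Y-linked Ddx3y was read in both tumors, at 69.2 and 56.2 in LLC and 43 and 49.9 in B16F10, and was not called. Position genes, here the Hox genes, were called in both directions. Of 20 Hox genes tested, 7 were higher in LLC and 4 in B16F10, and 1 and 5 without the treated LLC pool of more reads, when 14 were tested. Without the other LLC pool the counts were 4 and 4 of 15, and without a B16F10 pool 9 and 1 of 15 or 8 and 1 of 14. Over all genes 20.6% were called in each direction in the fit of all treated pools. The Hox count in B16F10 lies near that share. Hoxd8, Hoxd9 and Hoxd10, neighbors in the HoxD cluster, were on the LLC side, with Hoxd9 at 258 and 259 against 2 and 1.25. Hoxd13, at the end of the same cluster, was on the other side, at 79 and 56.1 in B16F10 and 0 in both LLC pools, at least 52.0-fold higher in B16F10 with 3 reads over the group in place of 0. The imprinted gene Plagl1, a zinc finger growth regulator, had 2235 and 1744 in B16F10 against 5.65 and 3.51. Peg3, another imprinted zinc finger gene, had 126 and 126 in LLC against 11 and 12.5. Mest had 287 and 239 in B16F10 against 14.8 and 18.7, having fallen in LLC by 3.08 log2 units from a mean of 148 with treatment.

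Beyond these lists, other genes were among those with the largest differences at a level of at least 100 normalized reads. On the B16F10 side the leading gene was Ptgds, the lipocalin that makes prostaglandin D, at 26725 and 30031 in B16F10 against 4.94 and 2.34, a log2 difference of 12.63 ± 0.26. Syt4, a synaptotagmin of secretory vesicles, had 17389 and 17341 against 2.12 and 3.51, and Tspan10, a tetraspanin of pigment cells, 6716 and 7793 against 1.41 and 0. Chsy3, which builds chondroitin chains, had 2623 and 2225 in B16F10 and no read in treated LLC, and Gjb2, a gap junction protein, 2307 and 2428 and again no read. These were at least 1851-fold and 1786-fold higher in B16F10, with 3 reads over the group in place of 0. Bfsp2, a filament protein of the lens, had 3191 and 3976 against 0.706 and 1.17. On the LLC side stood Il18rap, a subunit of the interleukin 18 receptor, at 1348 and 1149 against 3 and 2.49, and Slc38a4, an amino acid carrier, at 2161 and 2105 against 2 and 6.23. Nxf3, a relative of RNA export factors, had 1025 and 937 against 0.999 and 1.25. Bnc1, a zinc finger gene of epithelia, had 367 and 363 against no read, at least 219.7-fold higher in LLC by the same limit. Scn9a, a sodium channel of sensory neurons, had 371 and 347 against 0 and 1.25, and Syt13, another synaptotagmin, 395 and 481 against 0.999 and 0. Also on this side were 2610203C20Rik and Gm773, at log2 differences of -8.41 and -8.03. Every gene named in this paragraph was also called, in the same direction, between untreated tumors.

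Secreted signals were mostly on the LLC side. Of 24 chemokines tested, 12 were called higher in LLC and 4 in B16F10 (median -1.82), and before treatment 14 and 3 of 25. The ligands of the neutrophil receptor CXCR2 led the list. Cxcl1 had 1765 and 563 normalized reads in treated LLC against 4 and 3.74 in treated B16F10, and Cxcl5 had 753 and 258 against 8.99 and 7.48. Cxcl2 had 727 and 175 against 0.999 and 1.25, a ratio of 467.8 with an exact 95% interval of 129 to 3867 for the 2 reads in B16F10. The LLC pools differed from each other by over 2-fold at these 3 genes, and both stayed above both B16F10 pools. Calls on Cxcl1, Cxcl2 and Cxcl5 were lost with precision weights (voom). Ccl2, which draws monocytes, had 2923 and 1676 against 118.9 and 119.7, a log2 difference of -4.20 ± 0.24. Higher in B16F10 were Ccl5, Cxcl9 and Cxcl10, all ligands of receptors on T cells and NK cells, and Cxcl14. Ccl5 had 200.9 and 229.4 in treated B16F10 against 11.3 and 2.34, and Cxcl9 had 90.9 and 59.8 against 16.2 and 11.7. Cxcl3 stood out for its response, with a mean of 53.9 in untreated LLC and 302 and 190.9 after treatment while B16F10 had 4.89 and then 0.999 and 2.49, a response difference of -3.29 ± 0.52 whose call was lost without the treated LLC pool of more reads, with values from -3.69 to -2.89 over the 8 fits that left out 1 pool.

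Growth factors and cytokines followed the same order, 10 of 21 higher in LLC and 2 in B16F10, or 6 and 3 of 15 without the treated LLC pool of more reads. Ereg and Areg, ligands of the EGF receptor, were on the LLC side. Ereg had 431 and 287 in LLC against 0 and 1.25, and Areg 176 and 176 against 3 and 0. Csf1, the growth factor of macrophages, had 3686 and 3080 against 258 and 238, and Il1b, an inflammatory cytokine, 261 and 87.8 against 3 and 11.2. The Il1b call was lost with precision weights and at an adjusted p under 0.001. Il18 and Tgfb2 were the members higher in B16F10, at 1.59 and 2.18. Suppressive genes gave 9 of 20 higher in LLC and 2 in B16F10. Ptgs2, the inducible cyclooxygenase, had 1917 and 1343 against 24 and 27.4, and Ptges, which completes prostaglandin E synthesis, 4084 and 3558 against 38 and 57.3. Arg1 and Nos2, the arginine-consuming enzymes of myeloid cells, were lower in B16F10 by log2 differences of -2.79 and -2.92, and Cd47, the signal that restrains phagocytes, by -1.90. Higher in B16F10 were the galectins Lgals3 and Lgals9, and Cd274, which encodes the checkpoint ligand PD-L1, was at 216.1 and 172.2 in LLC and 178.9 and 177 in B16F10 with no call. Wnt ligands and antagonists were called both ways, 5 of 12 higher in B16F10 and 4 in LLC, against 20.6% of all genes in each direction. Without either treated LLC pool 5 and 1 of 8 were called, and without a treated B16F10 pool 3 and 5 of 11 or 3 and 4 of 10. Wnt7b had 795 and 722 in LLC against 2 and 3.74, and Dkk2, an antagonist, 2766 and 2531 against 7 and 8.73, while the antagonist Dkk3 had 2689 and 2796 in B16F10 against 1.41 and 5.86.

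Transcripts listed as markers of host cells were compared next. In bulk RNA fewer cells of a type, less RNA per cell and reads from the tumor cells themselves cannot be told apart. The 10 neutrophil genes tested had a median of -3.06, and 5 were called higher in LLC. Without the treated LLC pool of fewer reads 9 of 9 were called. S100a9, a calcium-binding protein abundant in neutrophils, had 1171 and 465 against 38 and 19.9, and Mmp9, a gelatinase, 309 and 336 against 16 and 27.4. Cytotoxic genes were lower in B16F10 in 6 of 7 tested, among them perforin (Prf1) at 50.1 and 55 in LLC against 2 and 1.25. Without either treated LLC pool 1 was tested and none called. Granzymes Gzmc to Gzmf lie in a cluster of close relatives, so that reads may be split among them, and Gzmd had 178 and 180 against 3 and 6.23. The NK receptor Ncr1 had at most 1.25 normalized reads in any treated pool and the T cell genes Cd3e and Cd8a at most 2. Of 20 T cell genes 4 were tested. Thy1 and Lat were called higher in B16F10, of which Thy1 is also a fibroblast gene. Of the dendritic cell genes 6 were tested and 1, the receptor Flt3, was called, on the LLC side. The Flt3 call was lost with the rule's scaling and at an adjusted p under 0.001, and 3 of 5 were called without the treated B16F10 pool of fewer reads. B cell genes gave 2 tested and none called, mast cell genes 1 and none, and adipocyte genes 9 and none, or 3 of 6 higher in B16F10 without the treated LLC pool of fewer reads. Red cell genes gave 2 called of 4, with Alas2, which starts heme synthesis, at 800 and 1780 in treated B16F10 against 169 and 155. Before treatment 3 of 4 were called higher in B16F10. Alas2 then had 4308 and 1214 in B16F10, pools far apart, against 81.5 and 67 in LLC. Of the keratinocyte genes 3 were tested and 1 called, and the skin keratins Krt5 and Krt14 had from 0 to 3.51 normalized reads in the treated pools.

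**Figure D3:**
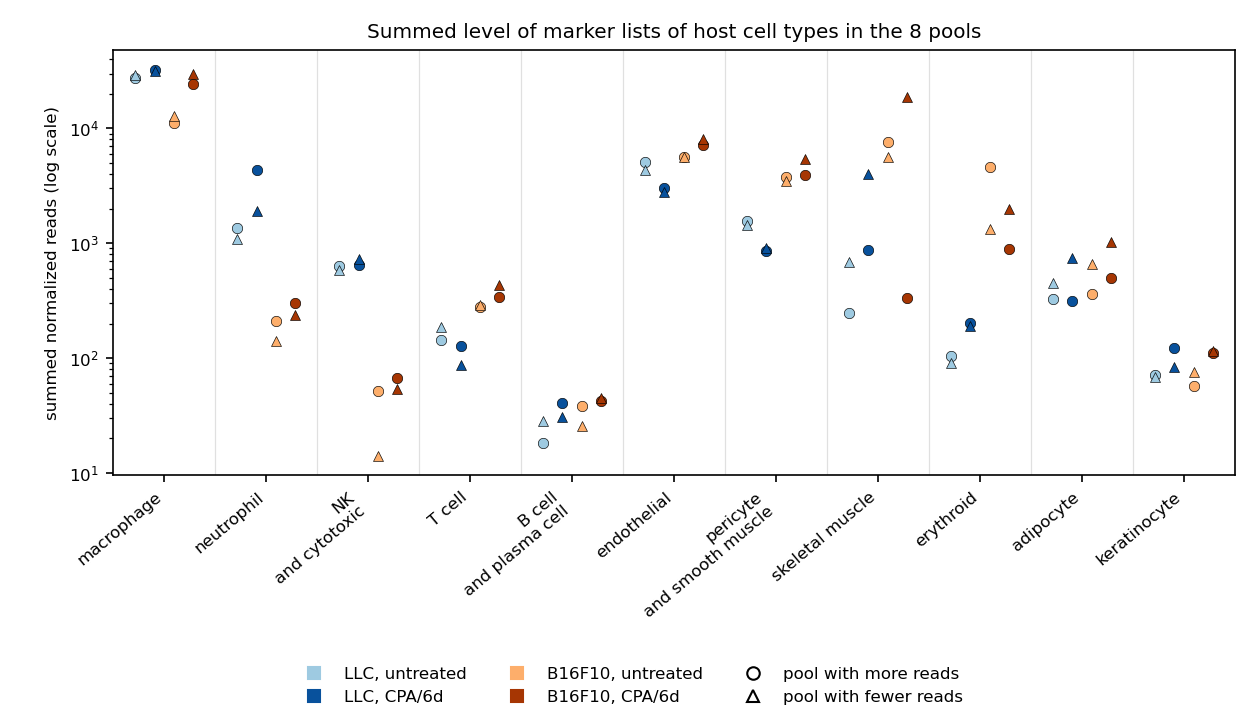
Summed normalized reads (y axis, log scale) of lists of marker genes of host cell types (x axis) in each of the 8 pools, colored by group, with circles for the pool with more reads and triangles for the pool with fewer. Neutrophil genes sum to 4305 and 1898.6 in treated LLC and to 299.83 and 236.84 in treated B16F10, and skeletal muscle genes split the treated B16F10 pools, at 332.81 and 18613.

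Macrophage genes were mostly on the LLC side before treatment and divided after it, with 10 above 0 and 11 below in the treated difference. Of 21 tested, 10 were called higher in treated LLC and 1 in treated B16F10, and before treatment 18 and 1. Without the treated LLC pool of fewer reads the treated counts were 10 and 3. Their median was -1.09 after treatment, -0.09 without the treated B16F10 pool of fewer reads and -1.91 without the other, and -2.20 before. The markers Cd68, C1qa and Csf1r were called higher in LLC before treatment and were not called after it. After treatment Cd68 narrowly missed the fold on the B16F10 side, at a log2 difference of 0.98 ± 0.11, or 1.13 by the rule's ratio. Cd68 had 760 and 838 in treated B16F10 against 371 and 440 in treated LLC, while before it had means of 193.1 and 529, a response difference of 2.42 ± 0.19 (adjusted p = 4.2e-05). C1qa, a subunit of the first complement component, went from 327 to 816 and 1071 in B16F10 and from 987 to 558 and 632 in LLC. Csf1r, the receptor of Csf1, had 333 and 460 in B16F10 against 317 and 347 after treatment, and 167 against 533 before. Other members stayed on the LLC side. Mrc1, the mannose receptor, had 482.7 and 506.1 in B16F10 against 2068 and 2449, and Spp1, osteopontin, which tumor cells make too, 2409 and 2246 against 17282 and 15265. The lysozymes Lyz1 and Lyz2, near-identical copies, were both on the LLC side, at -2.65 and -2.55. Apoe was the member higher in B16F10, at 16314 and 20688 against 1926 and 2398. In the response, 12 of the 21 were called higher in B16F10 and none lower, with 13 risen in B16F10, and 2 risen and 2 fallen in LLC.

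Endothelial genes were called in few cases between treated tumors, 5 of 19 higher in B16F10 and none in LLC (median 0.78). The first count lies near the 20.6% of all genes called in that direction. In the response 6 of 20 were higher in B16F10, against 4.60% of all genes. In LLC 9 of 20 endothelial genes fell with CPA and none rose, while none was called either way in B16F10. Pecam1, the CD31 adhesion molecule, went from a mean of 687 to 287 and 248 in LLC and from 391 to 411 and 516 in B16F10, a response difference of 1.59 ± 0.19. Kdr, the main VEGF receptor, had 241 and 277 in treated B16F10 against 50.8 and 63.2, and Eng, a TGF-beta coreceptor, 3536 and 4035 against 578 and 606. Pericyte and smooth muscle genes were higher in B16F10 in 9 of 12 tested (median 1.71). Tagln, a contractile cell protein, had 338 and 421 against 30.4 and 37.5, and Myl9, a myosin light chain, 292 and 304 against 16.9 and 19.9. LLC fell in 6 of these 12. Of 18 genes of VEGF and angiopoietin signaling, Figf, which encodes VEGF-D, was on the LLC side, at 175 and 195.6 against 31 and 37.4. Flt4, a receptor for it, was on the B16F10 side, at 229 and 226 against 21.9 and 17.6. Vegfa had 1512 and 1350 in B16F10 against 1776 and 1490 and was not called. Without the treated B16F10 pool of fewer reads, 3 and not 6 of the VEGF list were higher in B16F10.

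The matrix differed in its parts. Of 34 collagens tested, 14 were called higher in B16F10 and 11 in LLC, and of 28 glycoproteins and proteoglycans 11 in each. Over all genes 20.6% were called in each direction. The median of the collagens was 0.94, but -1.17 and -1.09 when either treated B16F10 pool was left out, since collagens read in B16F10 alone then fell out of the test. The counts were then 7 in B16F10 and 14 in LLC of 27 without the pool of fewer reads, and 7 and 11 of 25 without the other. Fibrillar Col3a1 had 24900 and 25478 in LLC against 4910 and 5190, whereas Col1a1 and Col1a2, the chains of type I collagen, were higher in B16F10 by 2.37 and 2.79. Col7a1, the anchoring fibril collagen of skin, had 901 and 799 in LLC against 14 and 21.2. Cartilage collagens were on the B16F10 side, among them Col2a1, Col9a1, Col9a2, Col10a1 and Col11a1. Col10a1, the collagen of hypertrophic cartilage, had 364 and 261 in treated B16F10, a mean of 17 in untreated B16F10 and 0 and 1.17 in treated LLC, and its response difference was 3.55 ± 0.65. The latter call was lost in 6 of 8 fits that left out 1 pool, the exceptions being the treated LLC pools, with values from 2.99 to 4.11. Fibronectin (Fn1) had 46183 and 41645 in LLC against 8726 and 8279, and versican (Vcan), a large proteoglycan, 5223 and 4972 against 109 and 145. Fbln5, an organizer of elastic fibers, had 5252 and 5533 in B16F10 against 38.1 and 44.5, and Sparcl1, a matricellular protein, 9238 and 13047 against 304 and 313.

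Fibroblast genes went both ways, 7 of 13 higher in treated B16F10 and 4 in LLC (median 1.34), or 6 and 5 of 11 and 5 and 5 of 11 when a treated B16F10 pool was left out. Loxl1, which crosslinks elastin, was the farthest to the B16F10 side, at 298.8 and 249.3 in B16F10 against 16.2 and 24.6, and S100a4 the farthest to the other. The motility protein S100a4 had 10035 and 11094 in LLC against 167 and 285, and Pdgfra, the receptor that marks many fibroblasts, 1157 and 1039 against 63 and 74.8. Dpt, a dermal matrix protein, had 1878 and 1883 in treated LLC and a mean of 389 in untreated LLC, against 54 and 83.5 in treated B16F10, and its response difference was -2.30 ± 0.42. That call was lost in 4 of 8 fits that left out 1 pool, those without either treated LLC pool, the untreated LLC pool of more reads or the treated B16F10 pool of more reads, with values from -2.76 to -1.83. Among 30 matrix proteases and inhibitors 11 were called in each direction, with Timp3 and Timp4, which inhibit metalloproteases, higher in B16F10 and Mmp3, Mmp8 and Mmp9 higher in LLC. Timp2, another inhibitor, had 7323 and 7440 in LLC against 4205 and 4314 and missed the fold. Of 24 integrin genes, taken by symbol, 8 were higher in LLC and 7 in B16F10, against 20.6% of all genes in each direction. Itgb7, an integrin of homing lymphocytes, had 2716 and 2651 in LLC against 32 and 38.6, Itga3, a laminin receptor, 1524 and 1579 against 61 and 73.5, and Itgb1, the common beta chain, 8441 and 7624 against 8215 and 8296 with a difference of 0.04 ± 0.08.

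Interferon-stimulated genes were higher in treated B16F10. Of 26 tested, 18 were called higher and none lower (median 2.45), against 7 higher and 1 lower of 23 before treatment (median 0.53). All 26 were tested for the response, 23 rose with CPA in B16F10 and none was called in LLC, and the difference of responses was called in 12, each higher in B16F10. Promoters of 2 members are printed because these genes moved together, as the 250 bases before the RefSeq start in GRCm38.p6 with each GAAA that is followed 2 bases later by another GAAA, a core of the element that interferon factors bind, in capitals on either strand. They lie at chr4:156200819-156201068 on the minus strand (Isg15) and chr19:34583279-34583528 on the plus strand (Ifit3).
Isg15: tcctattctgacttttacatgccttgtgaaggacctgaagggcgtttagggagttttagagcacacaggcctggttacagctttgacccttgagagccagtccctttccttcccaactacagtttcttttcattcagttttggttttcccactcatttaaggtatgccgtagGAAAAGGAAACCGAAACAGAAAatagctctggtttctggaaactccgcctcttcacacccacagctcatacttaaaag
Ifit3: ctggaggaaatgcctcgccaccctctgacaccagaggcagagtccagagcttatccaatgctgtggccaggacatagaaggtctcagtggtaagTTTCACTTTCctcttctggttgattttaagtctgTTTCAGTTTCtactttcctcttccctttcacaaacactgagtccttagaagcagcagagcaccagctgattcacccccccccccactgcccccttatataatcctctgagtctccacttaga
Isg15 holds 3 overlapping matches that begin 78, 72 and 66 bases before the start, and Ifit3 holds 2, at 156 and 122. Of the 26 genes 18 had a promoter entry, and 8 of these, or 44.4%, held the motif on either strand, as did 3.46% of all genes with an entry and 2.98% of all promoters in the table. A match is not evidence of binding here.

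Isg15, a ubiquitin-like protein, had 331.8 and 327.8 normalized reads in treated B16F10 against 51.5 and 18.7 in treated LLC. Ifit3, which blocks translation of viral RNA, had 487 and 669 against 22.6 and 19.9, a log2 difference of 4.69 ± 0.20 (adjusted p = 4.97e-06 by limma). Untreated B16F10 had a mean of 51.6 Ifit3 reads, so that gene rose there by 3.51 log2 units. Usp18, which removes Isg15 from proteins, had 292 and 434 against 22.6 and 16.4, with a mean of 26.3 before, and its response difference was 3.10 ± 0.42. Bst2, a tether of budding virus, had 1508 and 1741 against 384.8 and 344.4. Neither group overlapped the other at these 4 genes, which again was not counted over all genes and adds nothing to limma's test. Members that were not called in the treated comparison included Stat2 at -0.05 and Oas3 at 0.04. The interferon genes themselves were near 0, with no read of Ifnb1 or Ifng in any treated pool.

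Downstream of interferon gamma, 7 of 13 GTPases were called higher in treated B16F10 and none lower, with none called of 12 before treatment. Irgm1 had 1216 and 1230 in B16F10 against 175 and 169 and a response difference of 1.64 ± 0.30. The call on its response was lost when any 1 of the 4 treated pools or the untreated LLC pool of fewer reads was left out, with values from 1.24 to 2.05. Class II genes, which present peptides from outside the cell, were higher in B16F10 in 6 of 9. H2-Aa had 343 and 501 in B16F10 against 41 and 58.6, and Cd74, the invariant chain, 659 and 1025 against 117 and 177. Class I genes were called in only 2 of 18, the transporter Tap1 and the proteasome subunit Psmb10, while 8 of 18 had a higher response in B16F10. B2m, the light chain of class I, had 6155 and 7152 against 4517 and 3866, a difference of 0.67 ± 0.11 that missed the fold, with a response difference of 1.02 ± 0.15 whose call was lost in 4 of 8 fits that left out 1 pool (0.91 to 1.13), one pool of each group. Many H2 genes are near-identical copies whose reads may be split between them. Without the treated LLC pool of more reads 5 of the 18 class I genes were called higher in B16F10.

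Complement genes divided between the treated tumors, and their responses were on the B16F10 side. Of 20, 6 were higher in treated B16F10 and 3 in LLC (median 0.30), near the 20.6% of all genes in each direction, against 2 and 9 of 19 before treatment. A higher response in B16F10 was called in 9 of 20, against 4.60% of all genes. Without the treated B16F10 pool of fewer reads the treated counts were 5 and 5 of 19. C4b, a central component whose reads may be shared with a near-identical copy, had 3024 and 3551 in treated B16F10, a mean of 337 in untreated B16F10 and 85.4 and 167 in treated LLC. Its response difference of 4.16 ± 0.45 (adjusted p = 1.6e-04) was the largest of the list. C2 had 2298 and 2655 against 73.4 and 66.8. Masp1, a protease of the lectin pathway, was on the LLC side, at 265 and 231 against 23 and 18.7. Lysosome genes were more often higher in treated B16F10, 16 of 34, with 1, Ctsl, higher in LLC (median 0.89). Ctsd, the aspartic protease of the lysosome, had 24985 and 29975 against 4120 and 4155. Hexa, a glycosidase, had 4926 and 4793 against 793 and 777, and Ctsf, a cysteine protease, 205 and 252 against 29.7 and 23.4. Lysosome genes and complement genes are also macrophage genes, and the macrophage markers moved in the same direction, with Cd68 as given above. Their part in these counts was not tested.

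The reverse held for genes of cell division. Of 33 mitosis and cell cycle genes, 22 were called lower in treated B16F10 and 3 higher (median -1.27), whereas before treatment 2 were lower and 4 higher (median 0.22). In the response 28 of 33 were lower in B16F10 and 2 higher, with 23 fallen and 3 risen in B16F10 and none called in LLC. Promoters of 2 members are printed for the same reason as above, with CCAAT, the box bound by NF-Y, in capitals on either strand. They lie at chr11:99024190-99024439 (Top2a) and chr9:70421555-70421804 (Ccnb2), both on the minus strand of GRCm38.p6.
Top2a: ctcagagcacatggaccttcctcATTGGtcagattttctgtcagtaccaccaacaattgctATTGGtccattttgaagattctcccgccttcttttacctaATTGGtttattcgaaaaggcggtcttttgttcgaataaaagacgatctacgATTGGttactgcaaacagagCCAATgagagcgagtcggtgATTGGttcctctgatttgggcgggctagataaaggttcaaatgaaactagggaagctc
Ccnb2: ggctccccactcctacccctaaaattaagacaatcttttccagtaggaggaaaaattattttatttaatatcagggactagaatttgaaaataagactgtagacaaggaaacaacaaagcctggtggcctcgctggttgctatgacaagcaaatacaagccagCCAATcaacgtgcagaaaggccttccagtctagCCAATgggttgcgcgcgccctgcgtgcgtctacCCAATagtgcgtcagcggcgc
Top2a holds 6 boxes in these 250 bases and Ccnb2 holds 3, which begin 87, 54 and 21 bases before its start. Of the 33 genes 26 had a promoter entry, and 19 of these, or 73.1%, held the box on either strand, as did 37.5% of all genes with an entry and 33.8% of all promoters. These 5 letters are short and often found, and a match is a description only.

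Top2a, the topoisomerase of dividing cells, had 2051 and 1986 normalized reads in treated B16F10 against 6769 and 6371 in treated LLC. Before treatment B16F10 had 6628 and 6975 and LLC 5351 and 5393, so treated B16F10 was below each other group, and the response difference was -2.04 with an adjusted p of 1.39e-05 by limma. Mki67, the proliferation antigen Ki-67, had 769.6 and 963.6 against 3543 and 3565, and Cdk1, the mitotic kinase, 621.6 and 575.9 against 1632 and 1545. Ndc80, which links kinetochores to microtubules, had 99.9 and 69.8 against 575 and 587, and Cenpe, a kinetochore motor, 217 and 182 against 1556 and 1608. Ccnb2, cyclin B2, had 385.8 and 361.5 against 768.2 and 762.5. Each of these genes had no called response in LLC. The 3 members called higher in B16F10 were Ccnd2, Ccnd3 and Ccne1, which are cyclins of the G1 phase and not of mitosis. Ccnd2 had 25242 and 21973 in treated B16F10 against 1829 and 1700, with means of 7796 and 1544 before. Myc, the growth-promoting transcription factor, had 437 and 404 in treated B16F10 and 7788 and 7728 in treated LLC, and it was lower before treatment too, at means of 847 and 6697.

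**Figure D4:**
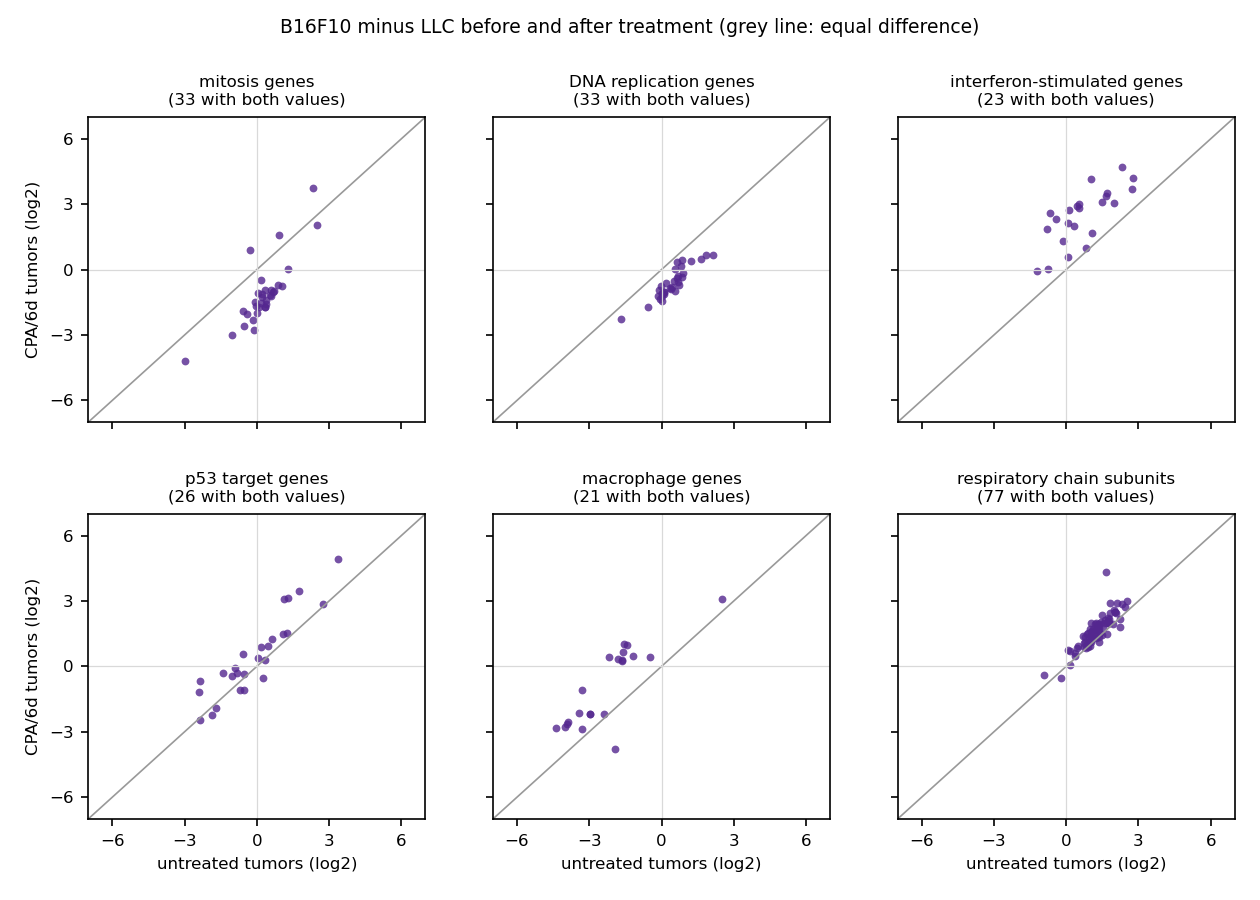
Log2 difference of B16F10 and LLC in untreated tumors (x axis) and in CPA/6d tumors (y axis) for the members of 6 lists (points), with a grey line where both are equal. Mitosis and DNA replication genes lie below the line apart from the G1 cyclins, interferon-stimulated and macrophage genes mostly above it, and respiratory chain genes close to it and above 0.

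DNA replication genes moved less far. Of 33 tested, 10 were called lower in treated B16F10 and none higher (median -0.76), against 1 lower and 4 higher before treatment, and the response was lower in B16F10 in 22. With the rule's scaling 6 were called lower. Mcm4, part of the replicative helicase, had 672 and 561 in treated B16F10 against 1547 and 1554, with means of 1355 and 1411 before. Pola1, the catalytic subunit of polymerase alpha, had 330 and 273 against 839 and 816. Rrm2, which makes deoxynucleotides, was still above LLC after its fall, at 2133 and 2029 against 1294 and 1292 from 4362 and 4050 before. Genes for the repair of crosslinks gave 4 of 23 lower in B16F10 and 1 higher. Neither count exceeds the 20.6% of all genes called in each direction. A lower response in B16F10 was called in 5, against 3.94% of all genes. Fanca, of the Fanconi complex, had 201 and 221 in B16F10 against 1634 and 1558, Brca2 200.9 and 200.7 against 434.2 and 394.7, while Brca1 had 1577 and 1693 against 685 and 655.

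Targets of p53 divided. Of 26 tested, 8 were called higher in treated B16F10 and 5 higher in LLC (median 0.10), against 20.6% of all genes in each direction. The count in LLC lies near that share. The response was higher in B16F10 in 3, against 4.60% of all genes, and lower in none. Those 3 were Cdkn1a, Ccng1 and Phlda3. Cdkn1a, the p21 inhibitor of cyclin-dependent kinases, had 11288 and 10822 normalized reads in treated B16F10 against 1402 and 1156 in treated LLC, and before treatment means of 1966 and 803. Its treated difference was 3.12 ± 0.10 and its response difference 1.83 ± 0.13 (adjusted p = 2.9e-05 by limma). Ccng1, cyclin G1, had 7914 and 7509 against 723 and 659, and Phlda3, an inhibitor of AKT, 3388 and 3464 against 380 and 426. Bax, which permeabilizes mitochondria, had 1636 and 1527 against 537.3 and 588, with no called response difference. The targets Mdm2, Bbc3 and Fas were not called, at log2 differences of -0.36, -0.43 and -0.31, and Trp53 itself was higher in LLC, at 1865 and 1922 against 871.5 and 942.4. With the rule's scaling 10 of the list were higher in B16F10 and 3 in LLC.

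**Figure D5:**
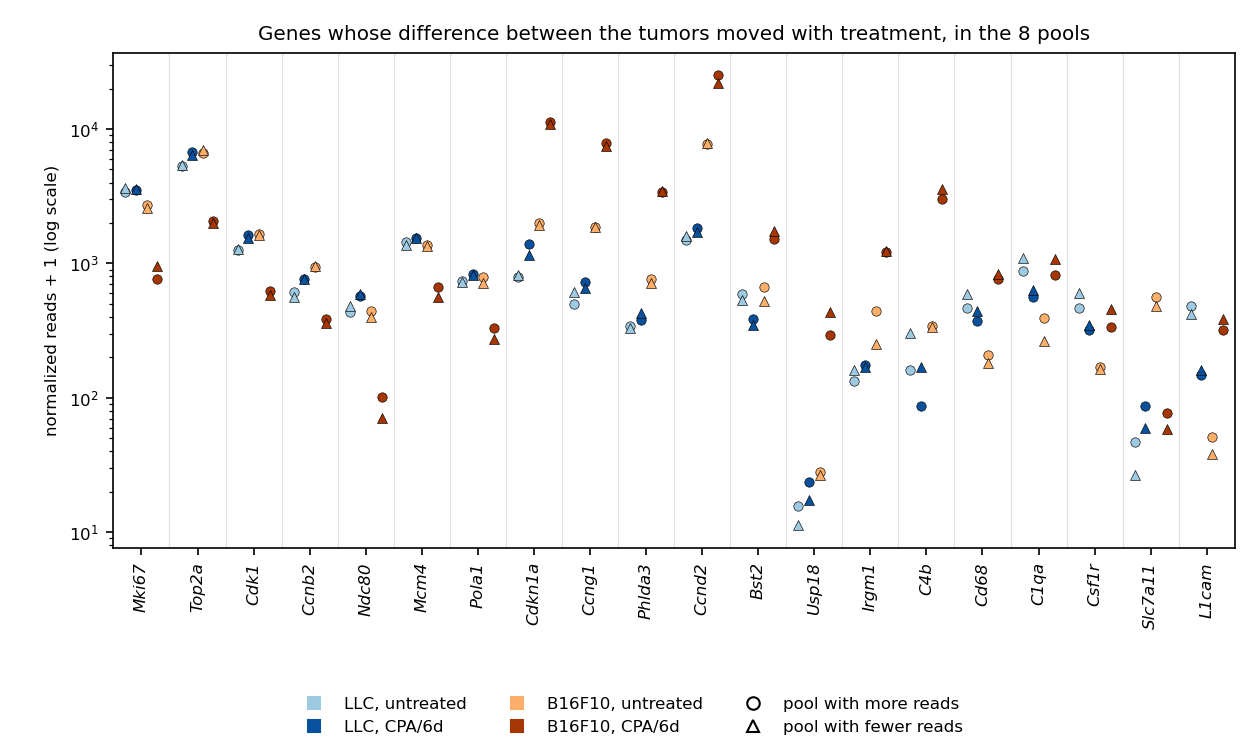
Normalized reads plus 1 (y axis, log scale) of 20 genes with a called difference of CPA response (x axis) in each of the 8 pools, colored by group, with circles for the pool with more reads and triangles for the pool with fewer. Treated B16F10 is the lowest group from Mki67 to Pola1 and the highest from Cdkn1a to C4b, as with Cdkn1a at 11288 and 10822 against 1402 and 1156 in treated LLC.

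Energy metabolism separated the tumors before and after treatment. Of 79 genes of the respiratory chain, taken by symbol, 65 were called higher in treated B16F10 and none in LLC (median 1.68), and 55 of 78 before treatment (median 1.27). A single member, Cox7a1, had a called difference of response. Ndufa3, a subunit of complex I, had 1468 and 1916 in B16F10 against 207 and 237, and Atp5o, of the ATP synthase, 4422 and 6026 against 643 and 634. Atp5b, its catalytic chain, had 21439 and 22896 against 12002 and 11719, a difference of 0.90 ± 0.08 that missed the fold. Cox7a1 and Cox8b are isoforms of muscle. Cox7a1 had 108 and 111 in treated B16F10, where the muscle genes summed to 332.81 and 18613. Without the B16F10 pool that held the muscle transcripts, 61 of 77 respiratory chain genes and 15 of 27 glycolytic genes were called higher in B16F10.

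Glycolytic genes were higher in B16F10 in 16 of 28, with 4 higher in LLC. Aldoa had 44472 and 57086 in B16F10 against 5611 and 5765, Gapdh 38360 and 45120 against 8975 and 8802, and Pkm2, pyruvate kinase, 63471 and 73570 against 28946 and 27058. The hypoxia-induced genes of the list split. Car9, a carbonic anhydrase, had 6041 and 5961 in B16F10 against 164 and 186, while Egln3, a sensor of oxygen, had 5235 and 4488 in LLC against 227 and 151. Slc2a1, the main glucose carrier, had 4213 and 3684 in LLC against 2400 and 1966 and missed the fold.

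Genes that handle aldehydes and glutathione, which take part in the inactivation of CPA metabolites, were also mostly on the B16F10 side. Of 15 aldehyde dehydrogenases 8 were called higher in treated B16F10 and none in LLC, against 5 and none of 13 before treatment. Without the treated B16F10 pool of fewer reads 5 of 13 were higher there. Aldh1a3 had 174 and 142 in B16F10 against 0.706 and 1.17, and Aldh1l1, of folate metabolism, 927 and 1077 against 41 and 35.1. Aldh1a1, the member best known for CPA detoxification, had 24 and 56.1 against 9.88 and 11.7 and was not called, and Aldh3a1 had no read in treated B16F10 and 3.53 and 5.86 in LLC. Of 32 glutathione genes 18 were higher in B16F10 and 4 in LLC. Gstp1, the pi class transferase, had 2141 and 2078 against 408.8 and 385.4, and its near-identical copy Gstp2 551 and 686 against 2.12 and 2.34, so reads may be shared between them. The same holds for Gsta1 and Gsta2, which had no read in treated LLC. Gclc, the catalytic subunit of glutathione synthesis, was higher in LLC, at -2.26. Targets of NRF2 and iron genes gave 7 of 19 higher in B16F10 and 4 in LLC, and 2 in LLC with the rule's scaling, with median-of-ratios factors or without the treated B16F10 pool of fewer reads or the LLC pool of more reads. The count of 4 in LLC lies near the 20.6% of all genes called in that direction. Ftl1, a ferritin chain, had 45887 and 46310 in B16F10 against 9063 and 8824, and Nqo1, a quinone reductase, 106 and 84.3 in LLC against 30 and 31.2. Drug transporters went both ways, 11 of 39 higher in B16F10 and 7 in LLC, or 12 and 4 of 34 without the treated LLC pool of more reads. Without the treated B16F10 pool of more reads the order turned, to 8 and 9 of 37. Over all genes 20.6% were called in each direction in the fit of all treated pools. Abcb1a and Abcb1b, which encode P-glycoprotein, were higher in LLC, with log2 differences of -3.52 and -2.15, and Abcg2 was higher in B16F10 at 2.57.

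A last group had been higher in B16F10 before treatment and came closer. Of the ATF4 and amino acid stress genes, 13 of 26 were called higher in untreated B16F10 and 1 in LLC. After treatment 5 of 24 were called in each, near the 20.6% of all genes, and B16F10 had a lower response in 8. Over all genes 18.5% were called higher in untreated B16F10 and 3.94% had a lower response there. With the rule's scaling the treated counts were 6 and 3. Slc7a11, the cystine carrier, had 76 and 57.3 in treated B16F10 and 86.1 and 58.6 in treated LLC, which overlap, while before treatment the means were 523 and 36. Its response difference was -3.98 ± 0.41 (adjusted p = 1.3e-04 by limma). Trib3, a pseudokinase induced by ATF4, had 356 and 317 against 105 and 109, from a mean of 1101 in untreated B16F10. Sterol and fatty acid synthesis gave 15 of 28 higher in untreated B16F10 and none in LLC, and after treatment 5 and 2 of 27, with a lower response of B16F10 in 10. With the rule's scaling 8 of the 27 were higher in treated B16F10. Dhcr7, the last enzyme of cholesterol synthesis, stayed apart, at 1206 and 1112 in B16F10 against 156 and 131.

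The largest differences of response, among genes with at least 100 normalized reads in some group, included genes of no list. On the raised side Gpr17, a receptor of oligodendrocyte precursors, had 237 and 161 normalized reads in treated B16F10, and a ratio of 125.5 to untreated B16F10 with an exact 95% interval of 42.6 to 611.5 for the 3 reads there. Wfdc3, a protease inhibitor domain gene, had 131 and 163 against 2.12 and 2.34, with a ratio of 269.6 to untreated B16F10 (48.0 to 10688, 1 read there). Jam2, a junction molecule of vessels, rose in B16F10 and fell in LLC, to 250 and 252 against 17.7 and 25.8 from means of 60.8 and 83.1. On the lowered side several were genes that rose in LLC. Hmcn1, a basement membrane protein, had 227 and 237 in treated LLC from a mean of 31.6, and Uchl1, a ubiquitin hydrolase of neurons, 97.4 and 108 from 15.3. The treated tumors overlapped in neither gene, at 251 and 280 and at 148 and 151 in B16F10, and neither was called between them.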

How the data were processed

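RNA of pooled tumors was sequenced as strand-specific poly-A libraries in 2 pools a group. Per the methods and the labels, the authors aligned reads to mm9 with TopHat2 2.0.13, summed them by RefSeq gene and tested groups with DESeq. The deposited signal values are the authors' means of a group's 2 size-factor-normalized libraries. The tables also hold the authors' ratios, fold changes and p-values, which were not used. Each mean was split into the whole reads of its pools. The split was found for 100% of genes with reads, and the reads of a treated group were identical in both tables that hold it. Pools cannot be given their numbers.

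Reads were normalized by TMM, with 30% of ratios and 5% of levels trimmed, and tested two-sided with limma 3.58.1 (R 4.3.3), with a trended prior, on log2(normalized reads + 1). A fold on this scale understates the change of genes of few reads. Genes needed 10 reads at the median depth in 2 libraries and 15 in all. The rule's scale factor was 1.1716, from 11434 genes with means above 50. Genes without a read in a group were set at 3 reads over the group, and ratios on 1 to 3 reads have an exact Clopper-Pearson 95% interval. Both cover counting error only, as reads are not independent molecules. Pools are replicates of RNA and p-values measure the spread between them. The split and the test were checked on simulated data. Named genes were the 12 largest differences each way, up to 4 called and the most abundant members of each of 50 lists, the 8 largest response differences each way and cell markers. Some genes are not reported here. Other genes were named for their role after their values were seen. Genes and lists were chosen with earlier results of these data known. Sequences are from RefSeq. Alternatives changed the scaling, filter, pseudocount, threshold, weights and libraries.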

Additional observations from a re-analysis of the deposited data

Results flagged for a closer look

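The changes of B16F10 and of LLC with CPA differed, by limma's test of that difference in a fit of 8 pools, in the named genes that follow, each given with the response of B16F10 minus that of LLC on the log2 scale. In genes with few reads in a group these values depend on the 1 read added before the logarithm, and the treated pools enter both them and the treated difference. The call was lost in at least 1 alternative, most often with a pool left out, in 26 of the 73 genes, Adamts20, B2m, Cdh5, Col10a1, Cxcl3, Dpt, Elovl6, Fam81a, Figf, Flt4, Gjb2, Gstp2, Irgm1, Itgb7, Kdr, Loxl1, Masp1, Mitf, Plvap, Ppp1r26, Ptgds, Ptgfr, Ptgs2, Slc38a4, Tap1 and Thy1. No cause was tested.

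A higher response in B16F10 was found in interferon and antigen presentation genes, Usp18 3.10, Irgm2 1.78, Irgm1 1.64, Psmb10 1.50, Tap1 1.41 and B2m 1.02. It was found in p53 targets and G1 cyclins, Phlda3 1.94, Cdkn1a 1.83, Ccng1 1.72 and Ccnd2 1.40. Complement and lysosome genes were C4b 4.16, Masp1 3.13, C1qa 2.26, Ctsf 2.67, Ctss 1.62 and Ctsd 1.26. Macrophage genes and the chemokine of the group were Cd68 2.42, Csf1r 1.90, Spp1 1.56 and Ccl6 1.29. Vessel and mural genes were Jam2 3.92, Tagln 2.41, Mcam 2.16, Myl9 1.92, Flt4 1.75, Figf 1.68, Pecam1 1.59, Kdr 1.26, Plvap 1.16 and Cdh5 1.05. Genes of matrix and stroma were Timp4 5.00, Col10a1 3.55, Sparcl1 2.32, S100a4 1.82, Loxl1 1.68, Thy1 1.60 and Itgb7 1.32. Pigment lineage and nerve genes were L1cam 4.54, S100b 2.93 and Ptgds 2.30. The remaining genes of higher response were Gpr17 5.67, Wfdc3 5.04, Cxx1c 3.90, Tmem88b 3.58, Cox7a1 2.70, Gstp2 2.22, Mest 2.20, Gjb2 1.56, Hmox1 1.36 and Car9 1.26.

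A lower response in B16F10 was found in division and repair genes, Ndc80 -2.66, Cenpe -1.95, Pola1 -1.50, Mcm4 -1.28, Fanca -1.27, Mcm6 -1.24, Myc -1.22 and Pole -1.17. Amino acid and lipid genes were Slc7a11 -3.98, Slc38a4 -2.21, Slc1a4 -1.85 and Elovl6 -1.24. Secreted and matrix genes were Hmcn1 -3.48, Cxcl3 -3.29, Adamts20 -2.60, Dpt -2.30 and Ptgs2 -1.72. The remaining genes of lower response were Uchl1 -3.29, Ptgfr -3.27, Limch1 -3.20, Ppp1r26 -3.15, Fam81a -3.13 and Mitf -1.20.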

How the results depend on the processing

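Over scaling, filter, pseudocount, threshold, precision weights and the fit of 8 libraries, genes called higher in treated B16F10 numbered 2568 to 3076 and those higher in LLC 2239 to 3166. Leaving out each pool in turn gave 2077 to 2812 and 2158 to 2968. The lone pool of a group was then assumed to vary like the rest, and genes read in that group alone no longer passed the filter, so 41.5% to 42.2% of calls were higher in B16F10 without a B16F10 pool and 54.1% to 56.5% without an LLC pool. For the difference of responses, genes higher in B16F10 numbered 449 to 610 and genes lower 412 to 643 with a pool left out. At an adjusted p under 0.05, 1106 and not 619 genes had a higher response in B16F10, a looser threshold by construction. Of the named genes called between treated tumors, 185 kept their call in every alternative with a value and 10 (Aplnr, Cox8b, Cxcl1, Cxcl2, Cxcl5, Dsp, Flt3, Gpx4, Il1b and Slc7a5) lost it in at least 1, and of 73 called for the response difference 47 kept it and 26 lost it, with no reversal. Genes without a read in a treated group moved no median of a list when set at their bound. No paired analysis was possible because the columns are group means that carry no pool numbers. Depth limits genes of few reads. Muscle transcripts of the untreated B16F10 pools, of 1 treated B16F10 pool and of the treated LLC pool of fewer reads limit any reading of muscle genes and of their responses.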
